A study of Homo sapiens with 16 samples.

Results

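The pausing ratio compares engaged RNA polymerase II near a promoter with engaged polymerase in the body of the same transcript. Here it was compared between 9 libraries of cells treated with dTAG-47 and 5 untreated libraries, in 7822 of the 10304 transcripts listed. A transcript was included when its mean over the 14 libraries was at least 50 reads in both regions. Of the others, 2238 were left out for too few promoter-proximal reads, 133 for too few gene-body reads and 111 for both. The ratio of a transcript in a library was the log2 of its promoter-proximal CPM minus the log2 of its gene-body CPM. CPM is the read count relative to the total of that region and library, after a scaling factor described below was applied to the total.

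The libraries are PRO-seq, a nuclear run-on assay that labels nascent RNA with biotin and so maps engaged polymerase. They come from Kasumi-1, an acute myeloid leukaemia cell line, in which SMARCA5, the ATPase of the ISWI nucleosome-spacing complexes, carries the FKBP12F36V degradation tag on both alleles. Tagged cells were untreated (5 libraries) or received 500 nM dTAG-47, a degrader molecule that binds the tag, for 2 h (3 libraries), 6 h (4 libraries) or 24 h (2 libraries), and the design text calls the samples biological replicates. All 14 libraries carry the tag, and the 2 parental samples of the series, with untagged SMARCA5, were not analysed here.

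After initiation, polymerase commonly stops shortly downstream of the start site, where the negative elongation factor NELF and the DSIF complex hold it. The kinase P-TEFb releases it into the gene body, and Integrator can end the paused transcript instead. A higher ratio therefore means relatively more signal near the promoter, from more polymerase there, less in the gene body, or both.

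The authors' column names carry a letter (A or B) and 1 of 3 run codes, whose meaning they do not state, and the runs are numbered 1 to 3 here in the order of the columns. Run 1 has 2 untreated libraries and 1 at 2 h, run 2 has 1 untreated and 2 at 6 h, and run 3 has 2 libraries at each of 0, 2, 6 and 24 h. Gene-body totals ranged from 11182894 to 34209362 reads and promoter-proximal totals from 1667950 to 7171601 reads. Of the 9 myeloid blast markers, 8 were listed, with KIT between 3163 and 4391 gene-body CPM and MPO between 776 and 1047. The others included CD33 at 25.4 to 30.2 CPM and CEBPA at 3.91 to 7.0 CPM, and RUNX1T1 was not among the listed transcripts. Of markers of other cell types, the erythroid KLF1 (8.74 to 30.7 CPM) and the epithelial EPCAM (26.6 to 33.6 CPM) were listed, and the T lymphoid, B lymphoid and fibroblast markers were not.

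Promoters of 5 transcripts that show the different forms of the change are printed first. At EGR1 and MYB, whose ratio rose, the gene body passed the test and fell. At MYB the promoter-proximal change (0.50) was larger in size but did not pass its test. At DPH3 the promoter-proximal signal fell, at EBP the gene body rose, and at CKB both moved. The sequences are from RefSeq on GRCh38.p14, from 120 bases before to 30 bases after the RefSeq start, in the direction of transcription. Capitals mark exact matches, on either strand, to the motifs that were searched.
EGR1, chr5:138465359-138465508, plus strand: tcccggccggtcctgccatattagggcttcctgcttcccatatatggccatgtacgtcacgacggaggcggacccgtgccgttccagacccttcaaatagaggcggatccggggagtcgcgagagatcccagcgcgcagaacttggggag
MYB, chr6:135181188-135181337, plus strand: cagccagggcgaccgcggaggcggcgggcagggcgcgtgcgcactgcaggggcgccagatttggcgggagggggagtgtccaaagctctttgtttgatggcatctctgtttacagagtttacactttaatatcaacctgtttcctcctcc
DPH3, chr3:16264914-16265063, minus strand: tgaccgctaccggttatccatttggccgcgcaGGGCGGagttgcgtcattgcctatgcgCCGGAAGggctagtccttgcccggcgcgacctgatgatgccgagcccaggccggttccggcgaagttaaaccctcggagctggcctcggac
CKB, chr14:103522801-103522950, minus strand: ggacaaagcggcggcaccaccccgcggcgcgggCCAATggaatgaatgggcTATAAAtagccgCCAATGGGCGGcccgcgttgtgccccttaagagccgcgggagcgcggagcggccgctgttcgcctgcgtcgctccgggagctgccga
EBP, chrX:48521688-48521837, plus strand: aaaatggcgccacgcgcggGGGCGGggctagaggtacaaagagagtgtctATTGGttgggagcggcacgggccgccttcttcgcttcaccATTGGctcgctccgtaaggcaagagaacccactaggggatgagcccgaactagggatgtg

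The searched motifs were the TATA box TATAAA, the GC box GGGCGG, the CCAAT box (ATTGG on the other strand), the ETS motif CCGGAAG, the YY1 motif AAGATGGCG, the CREB motif TGACGTCA, the AP-1 motif TGACTCA, and by name the NRF1 palindrome and a CTCF core motif. A match describes letters and is not evidence of binding. At CKB matches of the CCAAT box and the GC box lie side by side. Shares were counted over the full RefSeq window of 300 bases, from 250 before to 50 after the start, 1 promoter per gene. Promoters were found for 6463 of the 7822 transcripts, including 104 of the rises and 150 of the falls described below. GGGCGG was present in 71.2% of the promoters of transcripts whose ratio rose, 72% of those whose ratio fell, 72.9% of those tested and 45% of all RefSeq promoters of that length. CCAAT was found in 34.6% of the rises, 30% of the falls, 39.4% of the tested promoters and 34.6% of all. CCGGAAG was found in 21.2% of the rises, 17.3% of the falls, 24% of the tested promoters and 10.3% of all. TATAAA was found in 4.81%, 6%, 4.74% and 11.5% of the same sets. The AP-1 motif was found in 4.81% of the rises, 2.67% of the falls, 2.42% of the tested promoters and 4.95% of all. The CREB motif was found in 4.81%, 2.67%, 3.73% and 1.85%, the YY1 motif in 4.81%, 3.33%, 5.23% and 1.75%, and the NRF1 palindrome in 1.92%, 4.67%, 2.99% and 1.24% of the same sets. The CTCF core motif was found in none of the called promoters and in 5 of the tested ones. None of these differences was tested.

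With all treatment times pooled, 309 of 7822 transcripts (3.95%) differed in pausing ratio between treated and untreated cells. The ratio rose in 122 (1.56%) and fell in 187 (2.39%). TTC8, a subunit of the ciliary BBSome, and EGR1, an immediate early transcription factor, had the largest rises. ZNF219, a zinc-finger transcription factor, and DPH3, a factor of diphthamide synthesis, had the largest falls. The test was limma with the run as a fixed term, and calls are at a Benjamini-Hochberg adjusted p under 0.05. At an unadjusted p under 0.05, 1612 transcripts passed. The median log2 change was 0.78 in the rises and -0.82 in the falls, and it exceeded 1 in size in 20 rises and 45 falls. Over all transcripts the median change was -0.03, with quartiles at -0.25 and 0.18.

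The counts rested largely on run 3 and on how the regions were scaled. By limma, without the untreated B library of run 3, 20 rises and 54 falls were called, and without the untreated A library of that run 36 and 77. Omitting the untreated B library of run 1 gave 309 falls, omitting the 6 h A library of run 2 gave 187 rises, and omitting the 6 h B library of run 3 gave 75 rises. With run 3 alone 444 rises and 649 falls were called, and without that run 0 were by limma (439 at an unadjusted p under 0.05). Each region was scaled separately by TMM, edgeR's trimmed-mean scaling, which removes a shift common to all transcripts. Scaling by library totals gave 97 rises and 304 falls. With no scaling the median change of all transcripts was -0.24, and the ratio rose in 5 and fell in 108.

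The common shift removed by scaling was examined from the median, over the 7822 transcripts of each library, of log2 promoter-proximal over gene-body reads. In run 1 the untreated libraries lay at -3.03 and -2.62 and the 2 h library at -2.24. In run 2 the untreated library lay at -2.54 and the 6 h libraries at -2.73 and -2.75. In run 3 the untreated libraries lay at -1.89 and -1.80 and the 6 treated libraries between -2.90 and -2.25. Treated minus untreated was thus 0.59 in run 1, -0.20 in run 2 and -0.62 in run 3. The mean over runs was -0.08, with p = 0.734 in a two-sided exact permutation test within runs (252 permutations, smallest possible p 0.00397). Without the 2 h library of run 1, which leaves 2 runs to average, the mean was -0.41 (exact permutation p = 0.0119, the smallest that its permutations allow). No common direction of the library medians was therefore found across the runs.

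**Figure D1:**
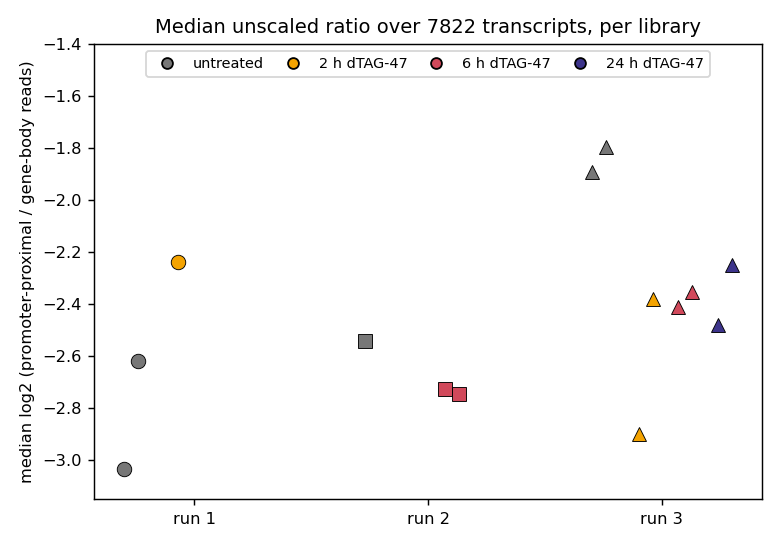
Median over 7822 transcripts of the unscaled log2 ratio of promoter-proximal to gene-body reads, 1 point per library, by run code (horizontal axis) and treatment time (colour). The treated library lies above the untreated ones in run 1, and the treated libraries lie below them in runs 2 and 3.

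Among the transcripts called, the direction was mostly shared by the runs. The mean treated minus mean untreated ratio had 1 sign in all 3 runs for 301 of the 309, against 31.6% of all transcripts; the calls were made on these same libraries, so this is a description. All 122 rises were higher in treated cells in runs 1 and 3, and 119 were in run 2. All 187 falls were lower in run 3, 185 in run 1 and 184 in run 2. Across all 7822 transcripts, the changes measured in different runs had Spearman correlations of 0.10 between runs 1 and 2, 0.13 between 1 and 3, and 0.16 between 2 and 3. These are correlations across transcripts, which are not independent replicates.

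Runs share no library, so calls made in run 3 alone, a setting chosen after seeing the data, can be looked up in the other runs. Of its 444 rises, 57.9% were higher in run 1 and 63.3% in run 2, against 50.8% and 48.1% of all transcripts. In both runs 39.2% were higher, against 26.3% of all transcripts. Of its 649 falls, 65.2% were lower in run 1 and 65.2% in run 2, against 49.2% and 51.9% of all transcripts. In both runs 43.9% were lower, against 27.5% of all transcripts. The median change of the 444 rises was 0.12 in run 1 and 0.18 in run 2, and that of the 649 falls was -0.20 in each.

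Both regions contributed to the rises and to the falls. By the same model on each region, 71 of the 122 rises had a higher promoter-proximal level and 52 a lower gene-body level. Of the 187 falls, 85 had a lower promoter-proximal level and 100 a higher gene-body level. Opposite called changes in both regions were found for 11 rises and 13 falls, and neither region passed its own test in 10 rises and 15 falls. The median promoter-proximal change was 0.64 in the rises and -0.55 in the falls, and the median gene-body change was -0.17 and 0.30. The promoter-proximal change was the larger in size in 102 of the rises and 115 of the falls, against 4576 of all 7822 transcripts. The ratio change is the difference of these changes by construction, so no test of this pattern was made. Among all 7822 transcripts, 9.5% were called near the promoter (369 or 4.72% rose, 374 or 4.78% fell) and 37.9% in the gene body (1595 or 20.4% rose, 1373 or 17.6% fell). With gene-body scaling factors applied to both regions, 17 rose and 201 fell near the promoter. Without the untreated B library of run 3 these counts near the promoter, separately scaled, were 95 and 129, and without its untreated A library 161 and 174.

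**Figure D2:**
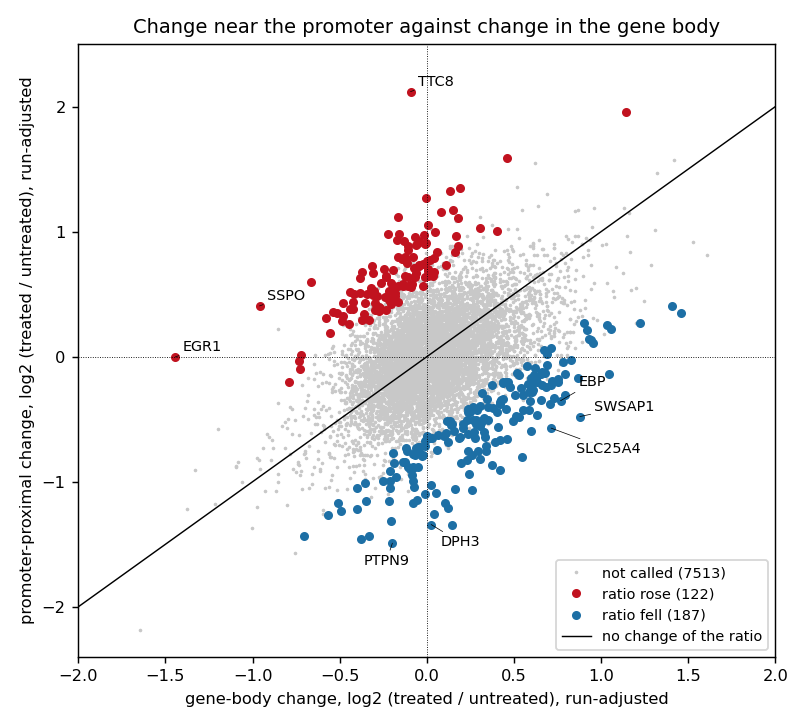
Change in the gene body (horizontal axis) against change near the promoter (vertical axis), both log2 treated over untreated with the run as a term, for 7822 transcripts. Red points are the 122 called rises of the ratio and blue points the 187 called falls; TTC8 lies high with a gene-body change near 0, and EGR1 lies far to the left with a promoter-proximal change near 0.

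The ratio of TTC8 (NM_144596, hg19 chromosome 14, 89290978 to 89344335) rose most. In untreated cells it was -1.44 and -1.11 in run 1, -0.33 in run 2, and -1.28 and -1.32 in run 3. In the 9 treated libraries it ranged from 0.22 to 2.24 with a median of 0.85. Every treated library lay above every untreated one. The promoter-proximal level was 11.4 ± 2.75 CPM (SD, n = 5) untreated and 51.4 ± 21.4 CPM (SD, n = 9) treated, while the gene-body level was 25.2 ± 2.61 and 24.2 ± 3.16 CPM. The log2 change of the ratio was 2.21 ± 0.26 (SE; limma adjusted p = 2.2e-04), and 28 to 556 promoter-proximal reads per library lay behind it.

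EGR1 (NM_001964, chromosome 5, 137801181 to 137805004), a zinc-finger factor induced within minutes by growth signals, showed the other form of rise. Its untreated ratios were 4.43 and 5.99 in run 1, 7.11 in run 2, and 5.02 and 4.63 in run 3. The treated ratios ranged from 6.12 to 7.74 with a median of 7.29, so the untreated library of run 2 lay within them. Its promoter-proximal level was 234 ± 92.4 CPM untreated and 241 ± 61.1 CPM treated, and its gene-body level was 6.25 ± 4.61 and 1.90 ± 0.84 CPM (SD, n = 5 and 9). The ratio changed by 1.44 ± 0.31 (SE; limma adjusted p = 0.0125), the gene body by -1.44 ± 0.41 (adjusted p = 0.0144) and the promoter-proximal region by 0.00 ± 0.24. Without the untreated A or B library of run 3 the call was lost (1.33, limma adjusted p = 0.0669, and 1.18, adjusted p = 0.111).

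SSPO (chromosome 7, 149473131 to 149531053), which encodes the secreted glycoprotein SCO-spondin, also rose with a lower gene body. In untreated cells the ratio was -2.46 and -2.12 in run 1, -2.80 in run 2, and -2.33 and -2.92 in run 3. The treated ratios ranged from -1.94 to -0.65 with a median of -1.01, and the groups did not overlap. The ratio changed by 1.37 ± 0.23 (SE; limma adjusted p = 0.00249), with a gene-body level of 98.6 ± 18.3 CPM untreated and 51.2 ± 14.5 CPM treated (SD, n = 5 and 9).

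The gene PTPLA (chromosome 10, 17631958 to 17659373), a dehydratase of very-long-chain fatty acid elongation, rose near the promoter. Its promoter-proximal level was 45.8 ± 10.5 CPM untreated and 113 ± 25.4 CPM treated (SD, n = 5 and 9). Within runs, its treated ratio was higher by 2.24 in run 1, 0.70 in run 2 and 1.12 in run 3. The highest untreated ratio (0.76, run 3) exceeded the lowest treated one (0.59, run 2), so the groups overlapped. The change was 1.29 ± 0.22 (SE; limma adjusted p = 0.00399).

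ATG2B (chromosome 14, 96747595 to 96829678), a lipid-transfer protein of autophagosome formation, had ratios of -0.90 and -1.16, -1.17, and -1.50 and -1.51 in the untreated libraries of runs 1, 2 and 3. The treated ratios ranged from -0.85 to 0.21 with a median of -0.28, just above the highest untreated value. The ratio changed by 1.05 ± 0.17 and the gene body by 0.01 ± 0.07 (SE), so the difference lay near the promoter, where the level was 23.7 ± 5.70 CPM untreated and 45.9 ± 10.4 CPM treated. LBR, the lamin B receptor of the inner nuclear membrane, changed by 1.10 ± 0.19 (SE; limma adjusted p = 0.00423), with treated ratios from -2.36 to -1.33 and untreated ratios from -3.42 to -2.33. KCNIP1, a potassium-channel-interacting protein, changed by 1.08 ± 0.19, with 1 treated library, 24 h B of run 3, below the untreated library of run 2.

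IL8, RSF1, CBWD2 and DNAJB14 were also among the 12 largest rises. IL8, the neutrophil chemokine CXCL8, changed by 1.26 ± 0.31 (SE), but by 0.04 in run 1 and 0.57 in run 2 against 2.11 in run 3. Its call was lost without either untreated library of run 3 (0.92, limma adjusted p = 0.155 without A, and 1.10, adjusted p = 0.15 without B). DNAJB14, a J-domain chaperone of the endoplasmic reticulum, changed by 1.06 ± 0.21. Without the untreated B library of run 3 its call was lost (0.89, limma adjusted p = 0.0804). CBWD2 (1.14 ± 0.21) has near-identical copies in the genome, so its reads are uncertain.

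DPH3 (NM_001047434, chromosome 3, 16298568 to 16306496) fell at every time. The untreated libraries had ratios of 2.5 and 3.31 in run 1, 2.53 in run 2, and 2.21 and 2.36 in run 3. The treated ratios ranged from 0.28 to 1.49 with a median of 1.06, and the groups did not overlap. Its promoter-proximal level was 128 ± 35.9 CPM untreated and 44.8 ± 9.11 CPM treated (SD, n = 5 and 9), while its gene body was 20.8 ± 1.24 and 21.8 ± 2.46 CPM. The ratio changed by -1.37 ± 0.19 (SE; limma adjusted p = 0.00102). OXNAD1 is listed within 1000 bases of DPH3, and reads of neighbouring transcripts could not be told apart.

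ZNF219 (chromosome 14, 21558205 to 21572863) had the largest fall. Before treatment its ratio was 1.71 and 0.75 in run 1, -0.42 in run 2, and 0.46 and 0.11 in run 3, against a treated range of -1.90 to -0.33 with a median of -1.19. The 2 h A library of run 3 was the highest treated library and lay just above the untreated library of run 2. The ratio changed by -1.49 ± 0.24 (SE; limma adjusted p = 0.002) and the promoter-proximal level by -1.34 ± 0.18. ARHGEF40 is listed within 1000 bases of it.

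ZBTB34 (chromosome 9, 129622944 to 129648156), a zinc-finger protein with a BTB domain, had the smallest adjusted p among the falls described here. Its untreated ratios were -0.98 and -0.45 in run 1, -0.74 in run 2, and -0.36 and -0.05 in run 3, and its treated ratios ranged from -2.42 to -1.23. The groups did not overlap, and both 6 h libraries of run 2 were the lowest. The ratio changed by -1.28 ± 0.17 (SE; limma adjusted p = 7.4e-04), with a promoter-proximal level of 61.8 ± 17.4 CPM untreated and 29.5 ± 8.14 CPM treated (SD, n = 5 and 9). PTPN9, a protein tyrosine phosphatase, had the lowest promoter-proximal change among the 12 largest falls, -1.49 ± 0.22 (SE), with a ratio change of -1.29 ± 0.23.

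SWSAP1 (NM_175871, chromosome 19, 11485383 to 11487627), a factor of homologous recombination, fell with a higher gene body. Its untreated ratios were 3.70 and 3.55 in run 1, 2.17 in run 2, and 3.84 and 3.88 in run 3. The treated ratios ranged from 1.40 to 2.72 with a median of 2.24, so the untreated library of run 2 lay within them. The gene-body level was 3.66 ± 1.26 CPM untreated and 6.55 ± 1.64 CPM treated (SD, n = 5 and 9), a log2 change of 0.88 ± 0.20 (SE), and the ratio changed by -1.36 ± 0.20 (limma adjusted p = 0.00116). EPOR is listed within 1000 bases of SWSAP1. SLC25A4, the mitochondrial ADP/ATP carrier, had a gene-body change of 0.71 ± 0.09 and a ratio change of -1.28 ± 0.24.

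CKB (chromosome 14, 103985995 to 103989196), the brain-type creatine kinase, moved in both regions. Its ratios were 3.32 and 3.43, 3.56, and 3.82 and 4.59 in the untreated libraries of runs 1, 2 and 3, and the treated ratios ranged from 1.86 to 3.23 with no overlap. The promoter-proximal change was -0.87 ± 0.20, the gene-body change 0.37 ± 0.12 and the ratio change -1.24 ± 0.18 (SE; limma adjusted p = 0.00116). The remaining 5 of the 12 largest falls were C11orf45 (-1.35), TBPL1 (-1.33), MLST8 (-1.33), S100A13 (-1.32) and C5orf62 (-1.30). TBPL1 is a relative of the TATA-binding protein, MLST8 a subunit of the mTOR complexes and S100A13 a calcium-binding protein. All 5 were called near the promoter, with changes of -0.80 (C11orf45), -1.21 (TBPL1), -1.07 (MLST8), -0.91 (S100A13) and -1.26 (C5orf62), and C11orf45 and S100A13 also in the gene body, with 0.55 and 0.42. C16orf79 is listed within 1000 bases of MLST8, and CHTOP within 1000 bases of S100A13.

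**Figure D3:**
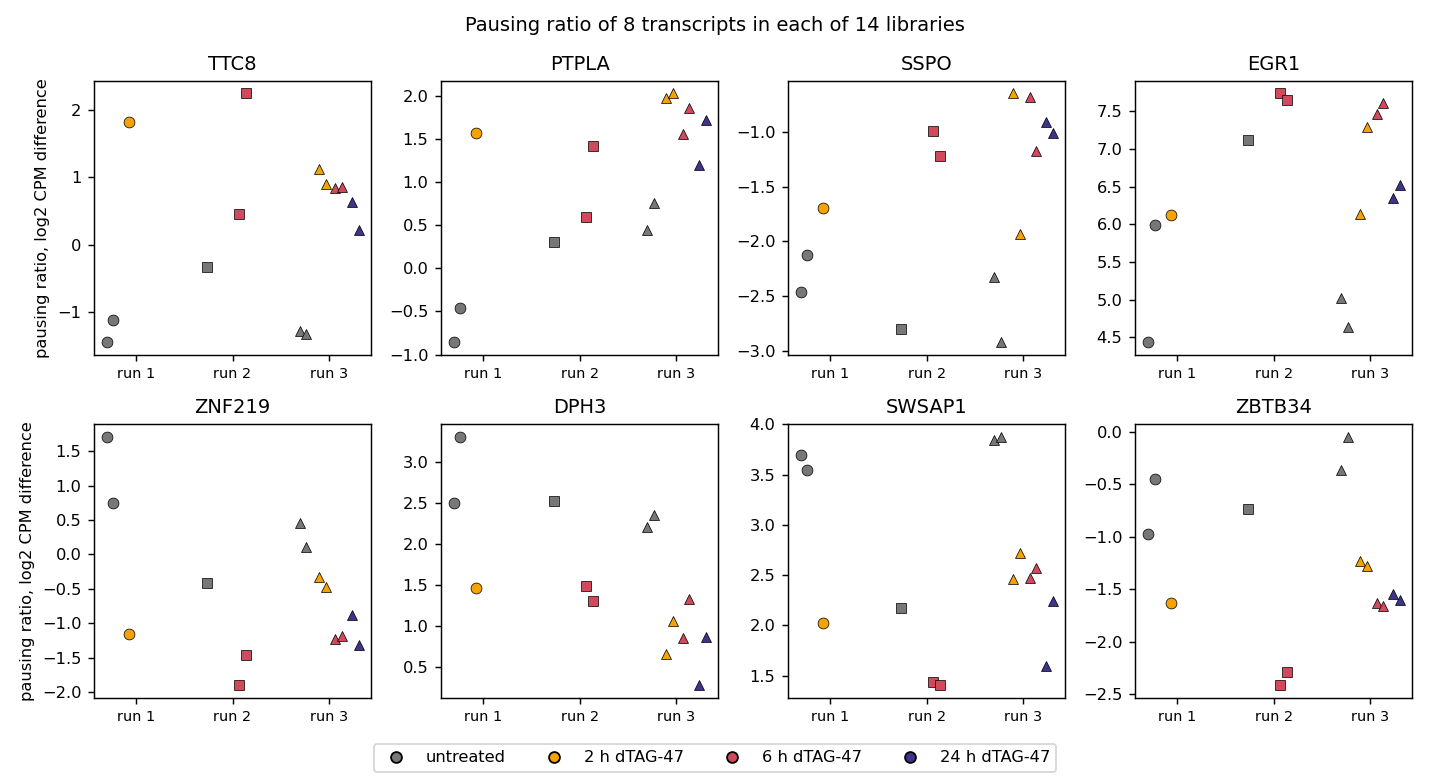
Pausing ratio (log2 promoter-proximal CPM minus log2 gene-body CPM) of 8 transcripts in each of 14 libraries, by run code and treatment time (colour). TTC8, SSPO, DPH3 and ZBTB34 separate treated from untreated libraries fully; for PTPLA, EGR1, ZNF219 and SWSAP1 a treated and an untreated library of different runs overlap.

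Complete separation of the 9 treated from the 5 untreated libraries, which takes no account of runs, was found for 84 of 7822 transcripts (1.07%). Treated libraries were higher in 31 and lower in 53. Of these 84, 60 also passed the test.

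The targeted gene was listed and passed the read filter. SMARCA5 (chromosome 4, 144434616 to 144478642) had ratios of -2.08 and -1.81 in run 1, -1.81 in run 2, and -1.47 and -1.47 in run 3, against -1.79 to -0.90 in treated cells with a median of -1.39. The groups overlapped, and the change of 0.24 ± 0.18 (SE; limma adjusted p = 0.475) did not pass the test. dTAG-47 acts on the tagged protein, so nascent RNA does not check the degradation.

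The number of calls differed by time, but its order rested on single libraries. Against untreated cells, the ratio rose in 45 (0.575%) and fell in 70 (0.895%) transcripts at 2 h, 1.47% in all. It rose in 5 (0.0639%) and fell in 26 (0.332%) at 6 h, 0.396% in all, and rose in 1 (0.0128%) and fell in 15 (0.192%) at 24 h, 0.205% in all. The median change of the 122 pooled rises was 0.84, 0.74 and 0.85 at 2, 6 and 24 h, and that of the 187 pooled falls was -0.81, -0.80 and -0.90. The times have 3, 4 and 2 libraries and share the same untreated ones. Tested directly, no transcript differed between 6 h and 2 h (472 at an unadjusted p under 0.05) or between 24 h and 2 h (350) by limma. Of the 309 pooled calls, 212 were called at no single time. In run 3 alone, where each time has 2 libraries, 425 rose and 522 fell at 2 h, 148 and 190 at 6 h, and 310 and 478 at 24 h. Leaving out 1 library moved these counts widely: to between 5 and 114 rises and 8 and 138 falls at 2 h, between 0 and 29 rises and 0 and 59 falls at 6 h, and between 0 and 11 rises and 0 and 64 falls at 24 h. Without the 2 h A library of run 3, 8 rises and 14 falls were called at 2 h against 9 and 24 at 6 h. Without the 2 h B library of run 3 the counts were 5 and 8 at 2 h against 5 and 20 at 6 h. Without the 2 h library of run 1 they were 16 and 8 at 2 h, 15 and 31 at 6 h, and 10 and 33 at 24 h. With no run term 6 h also had the most calls, 6 and 18, against 1 and 0 at 2 h and 0 and 2 at 24 h. The lowest 2 h counts came without the 2 h B library of run 3 or, for the falls, also without that of run 1. Counts of 0 in both directions came at 6 h without the untreated library of run 2 or the 6 h B library of run 3 (696 and 578 at an unadjusted p under 0.05, limma). At 24 h they came without either untreated library or the 24 h A library of run 3 (712, 604 and 487).

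The 4 transcripts called at all 3 times all fell: SWSAP1, DPH3, ZBTB34 and ASB3. SWSAP1 changed by -1.32, -1.16 and -1.90 at 2, 6 and 24 h, DPH3 by -1.42, -1.17 and -1.70, and ZBTB34 by -1.02, -1.49 and -1.38. ASB3, an ankyrin-repeat protein with a SOCS box that was named after its values were seen, changed by -0.97, -1.13 and -1.33. Its untreated ratios were -0.86 and -0.53, -0.77, and -0.45 and -0.52 in runs 1, 2 and 3, and its treated ratios ran from -2.06 to -1.26 without overlap. ASB3 overlaps the listed read-through transcript GPR75-ASB3, and their reads cannot be told apart.

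Other transcripts were called at some times only in the separate tests. RSF1, the partner of SMARCA5 in the remodelling and spacing factor complex, changed by 0.53 ± 0.26 at 2 h (limma adjusted p = 0.289), 1.60 ± 0.26 at 6 h (0.0145) and 1.86 ± 0.32 at 24 h (0.0214). HMGCS1, a synthase of the sterol pathway, changed by -1.62 ± 0.22 at 2 h (limma adjusted p = 0.00256), -0.63 at 6 h and -0.05 at 24 h, and its pooled change of -0.94 did not pass the test (adjusted p = 0.0576). CD37, a leukocyte tetraspanin, fell at 2 h (-1.62 ± 0.30), and its pooled change of -1.19 lost its call without the 2 h B library of run 1 (-0.79, limma adjusted p = 0.06). At 2 h the SNARE protein VTI1B (1.55 ± 0.29) and the ubiquitin ligase MYLIP (1.67 ± 0.37) rose. FBXO11, an F-box protein, rose at 6 h (1.31 ± 0.25), and UBE2L6, the ISG15-conjugating enzyme, fell at 6 h (-1.63 ± 0.27). None of these differences between times passed its own test.

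Shorter transcripts had more falls and longer ones more rises. By the listed span, the ratio fell in 4.79% of the 1753 transcripts under 10 kb, 2.28% at 10 to 30 kb, 1.10% at 30 to 100 kb and 1.73% of the 984 over 100 kb. It rose in 0.627%, 1.34%, 1.97% and 2.74% of the same classes. The median span was 44836 bases in the rises, 11995 bases in the falls and 25772 bases in all transcripts. In the under 10 kb class the median change of all transcripts was -0.15, with a gene-body median of 0.18 and a promoter-proximal median of 0.03. That median was -0.24 in run 1, -0.04 in run 2 and -0.17 in run 3. In the over 100 kb class the median change was 0.05, at 0.22, 0.02 and -0.02 in the same runs. Over all transcripts the medians of runs 1, 2 and 3 were 0.01, -0.02 and -0.05. The short class thus lay below the median of its run, and the long class above it, in every run. In run 2 the short class was close to that median and not below the 10 to 30 kb class (-0.05).

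Length moved with other properties whose part was not tested. The median gene-body count was 332 reads in the shortest class and 4393 in the longest. Another listed gene lay within 1000 bases for 49.2% of the falls, 26.2% of the rises and 33.2% of all transcripts. Noncoding transcripts, by their NR accession prefix, made up 15% of the falls, 4.1% of the rises and 6.97% of all.

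The unscaled ratio in untreated cells also varied with the calls. Of the 1956 transcripts above the upper quartile of the untreated ratio, 4.4% fell and 0.409% rose, and of the 1956 below the lower quartile, 1.28% fell and 3.17% rose. The untreated libraries enter both quantities, so a transcript high in them by chance is more likely to fall, and no test was made. These ratios were not divided by region length.

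**Figure D4:**
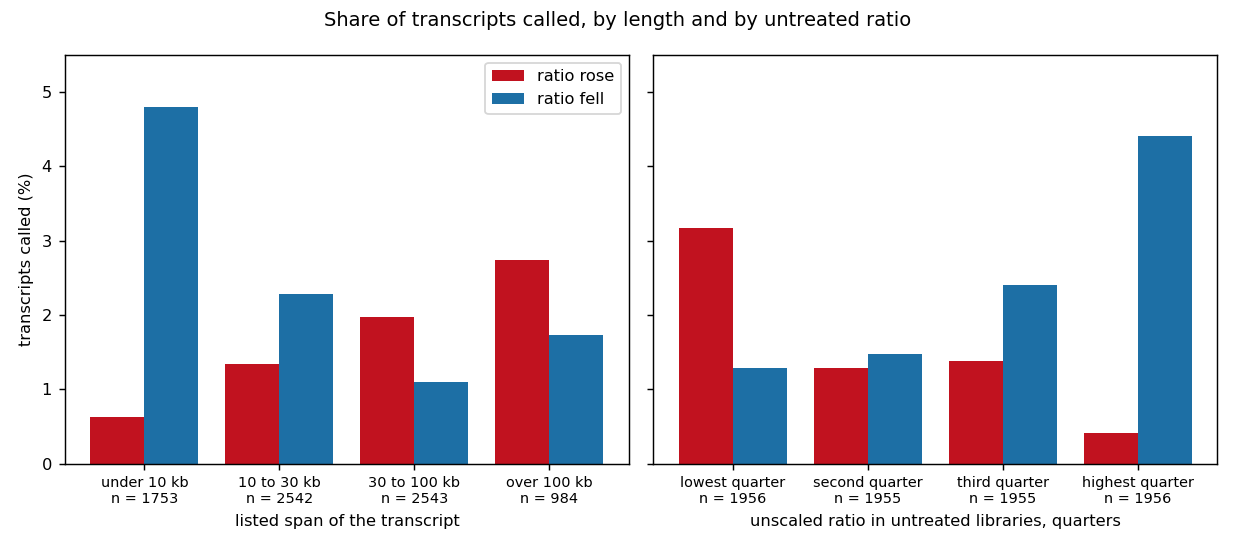
Percent of transcripts whose ratio rose (red) or fell (blue), by listed span (left) and by quartile class of the unscaled ratio in untreated libraries (right). Falls are most frequent under 10 kb and in the highest class, rises over 100 kb and in the lowest class.

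No gene encoding a regulator of pausing passed the test of its own pausing ratio. Of 6 NELF and DSIF subunits, 14 members of P-TEFb with its inhibitors and the super elongation complex, 9 of the PAF1 complex and related elongation factors, and 15 of Integrator and early termination, 0 were called by limma. By limma 1, 1, 1 and 2 passed at an unadjusted p under 0.05, against 1612 of all 7822 transcripts. At the background of 3.95% called, lists of this size would each hold under 1 call. The medians of these lists were 0.01, 0.04, -0.18 and -0.02. In the gene body 1, 1, 1 and 3 members rose and 0, 2, 3 and 3 fell by limma, against 20.4% and 17.6% of all transcripts. Near the promoter 0, 0, 1 and 0 rose and 0, 1, 0 and 0 fell, against 4.72% and 4.78%. HEXIM1, the inhibitor of P-TEFb, changed by 0.47 ± 0.23 (SE; limma adjusted p = 0.259), its kinase CDK9 by -0.40 ± 0.19 (0.233), and RDBP, the NELF-E subunit, by -0.65 ± 0.22 (0.0857).

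Medians of lists are relative to the separate scaling of the regions; with no scaling the median of all transcripts itself was -0.24. Among 11 ISWI subunits 1 rose and 1 fell, against 1.56% and 2.39% of all transcripts. By limma 5 of the 11 passed at an unadjusted p under 0.05, against 1612 of all 7822 transcripts. RSF1 (chromosome 11, 77377274 to 77531880) had untreated ratios of -4.70 and -5.34 in run 1, -4.92 in run 2, and -5.00 and -4.91 in run 3, and treated ratios from -4.87 to -2.29 with a median of -3.73. The groups overlapped through the 2 h B library of run 3, which lay below the highest untreated value, and the 6 h libraries of run 2 were highest. It changed by 1.20 ± 0.28 (SE; limma adjusted p = 0.0204), and the call was lost without the untreated library of run 2 (0.84, adjusted p = 0.0921) and without the untreated A or B library of run 3 (adjusted p = 0.0683 and 0.077). CHRAC1, a histone-fold subunit of the chromatin accessibility complex, fell by 0.77 ± 0.21 on the log2 scale (limma adjusted p = 0.0436) and kept its call in 4 of 14 fits that each left out 1 library. Of 19 SWI/SNF, CHD and INO80 remodellers and 10 CTCF and cohesin genes 0 were called by limma (5 and 1 at an unadjusted p under 0.05).

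Cholesterol genes more often rose in the gene body than all transcripts did, while calls of the ratio were near the background share. Of 24 tested, the ratio fell in 1 and rose in 0, against 2.39% and 1.56% of all transcripts. By limma 8 passed at an unadjusted p under 0.05, against 1612 of all 7822 transcripts, and the ratio was lower in 19. In the gene body 14 rose, against 20.4% of all transcripts, and near the promoter 4 rose, against 4.72%. The list median of the ratio was -0.26, against -0.03 for all transcripts, with -0.44 in run 1, -0.63 in run 2 and 0.03 in run 3. By time it was -0.54, -0.31 and 0.14 at 2, 6 and 24 h. Only run 3 has 24 h libraries, while 2 h also rests on run 1 and 6 h on run 2. This order of times therefore cannot be told apart from the difference between runs. The 1 called fall was EBP (chromosome X, 48380164 to 48387104), the sterol isomerase. Untreated, its ratio was 3.0 and 2.78, 1.41, and 2.89 and 3.30 in runs 1, 2 and 3, against 0.71 to 2.52 in treated cells, with overlap. It changed by -1.12 ± 0.20 (SE; limma adjusted p = 0.00455), with a gene-body change of 0.77 ± 0.14 and a promoter-proximal change of -0.35 ± 0.17. PORCN is listed within 1000 bases of EBP.

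Of 40 DNA replication genes 2 fell and 0 rose, against 2.39% and 1.56% of all transcripts. By limma 9 passed at an unadjusted p under 0.05, against 1612 of all 7822 transcripts. The ratio was lower in 28, with a list median of -0.24 that was negative in each run (-0.16, -0.16 and -0.30 in runs 1, 2 and 3). In the gene body 12 of the 40 rose and 0 fell by limma, against 20.4% and 17.6% of all transcripts. RRM2, the small subunit of ribonucleotide reductase, changed by -0.77 ± 0.18 (SE; limma adjusted p = 0.0185), with losses of the call without the untreated A or B library of run 3 (adjusted p = 0.074 and 0.145). CDT1, the origin-licensing factor, changed by -0.70 ± 0.19 (adjusted p = 0.0466) and kept its call in 3 of 14 such fits. Of 33 mitosis genes 0 were called by limma (4 at an unadjusted p under 0.05).

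Of 27 ribosome biogenesis genes 14 fell in the gene body and 0 rose by limma, against 17.6% and 20.4% of all transcripts, the list median of the ratio was 0.14, and it was positive in every run. By the ratio 1 of the 27 rose and 0 fell, against 1.56% and 2.39% of all transcripts. The rise was BOP1, a factor of ribosomal RNA processing (0.61 ± 0.16, limma adjusted p = 0.0343), with its call kept in 7 of 14 fits that each left out 1 library. NOP16, a nucleolar protein, missed the threshold (0.69 ± 0.20, adjusted p = 0.0531). Of 19 glycolysis and hypoxia genes 0 were called by limma (3 at an unadjusted p under 0.05, against 1612 of all 7822 transcripts). Their median was 0.15, and 10 fell and 2 rose in the gene body. PDK1, pyruvate dehydrogenase kinase, changed by 0.49 ± 0.18 in the ratio (limma adjusted p = 0.135) and by -0.86 in the gene body. Of 70 cytosolic ribosomal protein genes 1 rose, against 1.56% of all transcripts, and the median was -0.07. It was RPS18 (0.71 ± 0.19, adjusted p = 0.0403, kept in 6 of 14 such fits).

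Among 15 haematopoietic and leukaemia transcription factors 1 rose and 1 fell, against 1.56% and 2.39% of all transcripts. CEBPB (chromosome 20, 48807120 to 48809227), a bZIP factor of myeloid differentiation, had untreated ratios of 3.29 and 3.60, 2.73, and 3.52 and 3.53 in runs 1, 2 and 3, and treated ratios from 1.13 to 3.11 with overlap. It changed by -1.11 ± 0.24 (SE; limma adjusted p = 0.0125), with a promoter-proximal level of 71.2 ± 32.5 CPM untreated and 30.3 ± 14.9 CPM treated (SD, n = 5 and 9). MYB, a factor of haematopoietic progenitors, changed by 0.84 ± 0.20 (SE, limma adjusted p = 0.0209). Its gene-body change was -0.34 ± 0.07, and its promoter-proximal change of 0.50 did not pass its test. Both calls were lost without the untreated A or B library of run 3 (adjusted p = 0.0605 and 0.077 for CEBPB, 0.0761 and 0.125 for MYB), and that of MYB also without the untreated library of run 2 (0.0575).

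In the other lists, 1 of 18 immediate early and MAPK feedback genes rose (EGR1), and of 15 interferon-stimulated genes 1 rose and 1 fell. Of all transcripts 1.56% rose and 2.39% fell. PSMB8, a subunit of the immunoproteasome, changed by -1.09 ± 0.22 (SE; limma adjusted p = 0.00765) and separated treated from untreated libraries fully. IFIH1, the cytosolic sensor of double-stranded RNA, changed by 0.60 ± 0.16 (adjusted p = 0.0392) and kept its call in 5 of 14 fits that each left out 1 library. Of 15 amino acid transporter and ATF4 target genes PSPH, the last enzyme of serine synthesis, fell (-0.60 ± 0.16, adjusted p = 0.0348, kept in 6 of 14 such fits). Of 24 heat shock and unfolded protein genes and 39 spliceosome and hnRNP genes 0 were called by limma. At an unadjusted p under 0.05, 3 and 11 passed by limma, against 1612 of all 7822 transcripts.

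**Figure D5:**
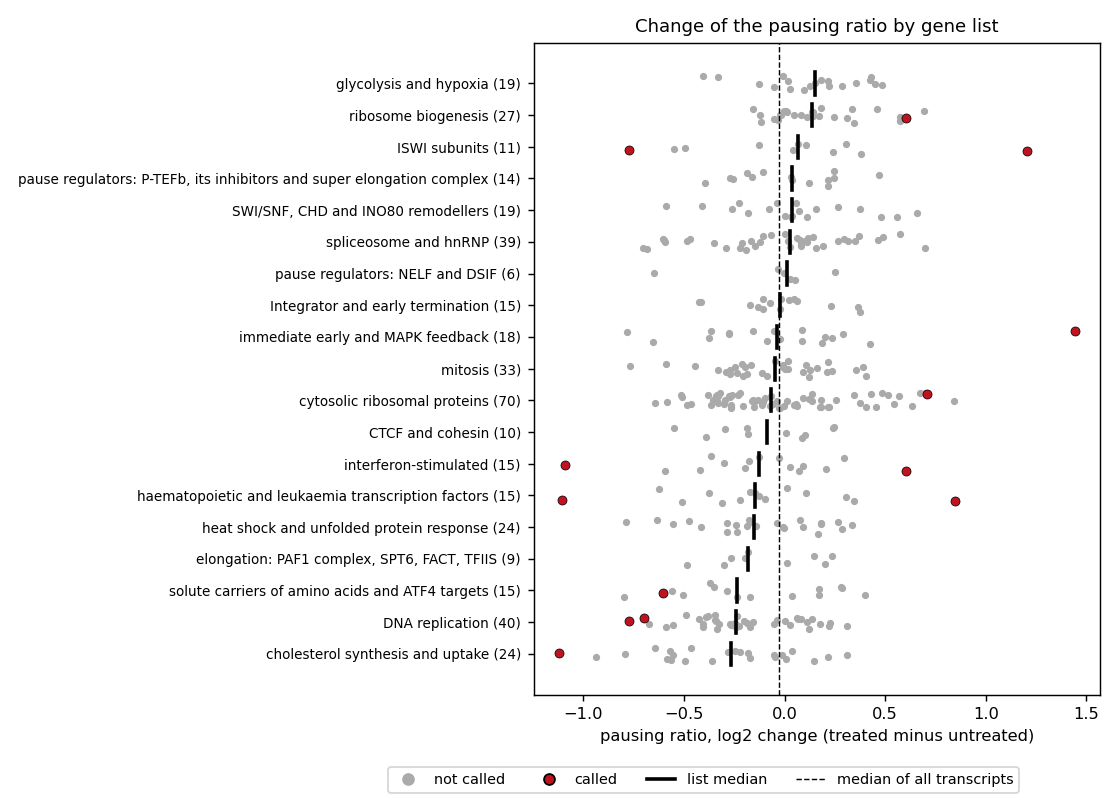
Change of the pausing ratio (log2, treated minus untreated, run as a term) for the tested members of 19 gene lists, with the number tested in brackets; red points passed the test, black bars are list medians and the dashed line is the median of all 7822 transcripts. List medians lie between -0.26 (cholesterol synthesis and uptake) and 0.15 (glycolysis and hypoxia), and no list has more than 2 calls. Of all 7822 transcripts 3.95% were called.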

How the data were processed

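Per the submitters' processing notes, reads were processed with Trimmomatic 0.32, Bowtie2 2.2.2, SAMtools, HOMER and DESeq tools on hg19. The 6 deposited tables hold raw read counts per RefSeq transcript, which the authors made for gene bodies and promoter-proximal regions. The sources used here give neither the counting windows nor the strand counted, nor any earlier filter on transcripts. A further 84 deposited columns of per-library values were not used.

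Each region was scaled by TMM (edgeR 4.0.16, R 4.3.3) over all listed transcripts and turned into log2 CPM with a prior count of 2. The per-library difference was fitted with limma 3.58.1, with run as a fixed term. The model had 1 coefficient for treatment, with 10 residual degrees of freedom, or 1 per time, with fewer. P-values were adjusted over 7822 transcripts by the Benjamini-Hochberg method, with a threshold of 0.05. Fold changes on this scale understate changes of low counts.

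Named genes were, among calls with 1 sign in the 3 runs, the 12 largest rises and 12 largest falls, the 4 largest per direction at each time, SMARCA5, and up to 4 members per list with the smallest adjusted p or any call. Not all are described, and a withheld item is not reported here. The members and lists were chosen with earlier results of these data known. Neighbours are other listed genes within 1000 bases.

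Simulated counts with 200 changed transcripts among 7822 were used to test the pooled comparison. Of changes of 1 log2 72% were recovered, and of changes of 0.5 log2 5%, with 6 false calls among 83. Both regions were drawn independently, with changes near the promoter only, so recovery in the real libraries can differ. Alternatives included edgeR's quasi-likelihood test, DESeq2 1.42.0, other scalings, filters, prior counts, run terms and leaving out each library. Promoter sequences are RefSeq's on GRCh38.p14, while the tables use hg19, so a listed start can differ.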

Additional observations from a re-analysis of the deposited data

Results flagged for a closer look

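The unscaled median ratio differed in direction between runs. Treated minus untreated was 0.59 in run 1, where the treated library lay above both untreated ones, and -0.62 in run 3, where all 6 treated libraries lay below both untreated ones. The difference between the runs was not tested. The promoter-proximal share of reads in the untreated libraries was 9.55% and 12.6% in run 1, 13% in run 2, and 19.7% and 20.6% in run 3, while the treated libraries lay between 11.3% and 17.3%.

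In 5 of 96 groups of 4 or 5 libraries, 1 library stood apart from the others, and chance gives about 1 in 20. The groups were the untreated and the 6 h libraries, for the library medians and for 47 named genes, 39 of them called in these same libraries. The untreated libraries come from 3 runs, so the rate for chance is only a guide. In 3 of the 5 groups the library that stood apart was the untreated library of run 2. There, the ratio of SWSAP1 was 2.17 where the other untreated libraries lay between 3.55 and 3.88, that of EBP was 1.41 against 2.78 to 3.30, and that of IFIH1 was 0.56 against -1.26 to -0.97. The untreated B library of run 1 had a DPH3 ratio of 3.31, the others lying between 2.21 and 2.53. The 6 h B library of run 2 had a KCNIP1 ratio of -2.08, above a lowest 6 h value of -2.77. The part that any run difference has in these values was not tested.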

How the results depend on the processing

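The pooled counts (122 rises, 187 falls) stayed within 1.5 times under prior counts of 0.5 and 10, DESeq2 size factors, a minimum of 20 reads, no filter, a random run effect, an intensity trend, 1 transcript per symbol and edgeR's quasi-likelihood test. The cause of the larger moves that follow was not tested. Library totals gave 304 falls, no scaling 5 rises and 108 falls, a minimum of 200 reads (fewer transcripts tested) 40 and 58, no run term 24 and 42, a threshold of 0.01 18 and 55, and DESeq2 202 and 313. Run 2 alone gave 1 and 0, and, chosen after seeing the data, run 3 alone 444 and 649, omission of run 3 0 and 0, and omission of run 1 213 and 328. Leaving out 1 library gave 20 to 187 rises and 54 to 309 falls.

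With no scaling, rises and falls were 1 and 8 at 2 h, 0 and 1 at 6 h, and 0 and 0 at 24 h. With no run term they were 1 and 0 at 2 h, 6 and 18 at 6 h, and 0 and 2 at 24 h, so that 6 h had the most. Run 2 alone gave 1 and 0 at 6 h. Run 3 alone gave 425 and 522, 148 and 190, and 310 and 478 at the 3 times. Leaving out 1 library gave 5 to 114 rises and 8 to 138 falls at 2 h, 0 to 29 and 0 to 59 at 6 h, and 0 to 11 and 0 to 64 at 24 h, and 0 calls between times.

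Near promoters (369 rises, 374 falls), gene-body scaling factors gave 17 and 201, run 3 alone 694 and 762, and leaving out 1 library 95 to 494 and 129 to 487. Gene-body falls were 827 in run 3 alone, and leaving out 1 library gave 1292 to 1550 rises and 1053 to 1369 falls. The mean shift of library medians (-0.08) was 0.0126 from total reads (exact permutation p = 0.972) and -0.41 to -0.0063 without 1 library.

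The columns carry a letter and a run code but no replicate number. In run 3, the A minus B differences of the ratio correlated across transcripts by -0.17 to 0.37 between times, so the letters were not taken to pair libraries. A replicate block of run and letter, added after seeing the data, left 2 of 14 libraries alone in their block and gave 137 rises and 212 falls pooled, 41 and 63 at 2 h, 9 and 30 at 6 h, and 5 and 39 at 24 h. Under it CHRAC1, BOP1, IFIH1 and VTI1B lost their call. Of 39 called genes named with values, 23 kept their call without any 1 library, and of the other 16, 15 lost it without the untreated B library of run 3. No named gene changed sign under any setting. In simulated counts at these depths, with the regions drawn independently, 5% of changes of 0.5 log2 were recovered. By mean promoter-proximal reads, 2.05% rose and 2.7% fell at 50 to 100 reads, and 1.14% and 1.92% over 500.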
